A study of Mus musculus with 2 samples.

Results

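Dividing and non-dividing fibroblasts were compared in the newborn mouse heart, using 911 cells that lay at the ends of a proliferation score. Fibroblasts were cell barcodes with at least 500 detected genes, haemoglobin genes below 0.5% and Myl2 plus Myl7 below 0.3% of counts, at least 2 counts summed over Tcf21, Dpt, Lum and Pdgfra, at least 10 counts of Col1a1 plus Col3a1, and 0 counts of the endothelial genes Pecam1 and Cdh5. Of 11935 barcodes, 1090 met these limits. The score of a cell was its summed count of 8 genes of late cell cycle (Top2a, Mki67, Ccnb1, Ccna2, Cenpf, Hmmr, Anln and Racgap1). Cells with a score of 5 or more are called cycling (193 cells) and cells with a score of 0 are called resting (718 cells), while 179 fibroblasts scored 1 to 4 and lay between them. The 8 score genes are left out of every result below, and the genes of the fibroblast rule appear only where the selection is checked.

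The study built a single-cell reference of the P0 mouse heart (postnatal day 0) from which to choose transcription factors for reprogramming. Whole hearts of C57BL6 and ICR background were dissociated with trypsin, and the cells carried no treatment. Both groups of cells come from the same hearts and the same 2 libraries, which are technical replicates of 1 biological sample. Resting here means without a count of the score genes, so a cell in an early part of the cycle can be among the resting cells. Cycling and resting cells differ by definition in the score genes, and because they were chosen on expression in the same cells, all differences between them are given as descriptions with no test.

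A dividing cell first copies its DNA in S phase, for which it makes nucleotides, licensing and polymerase proteins and new histones, and then separates the copies in mitosis with a microtubule spindle, kinetochores and a cytokinetic ring. Genes of S phase are typically controlled through E2F sites in their promoters, and genes of mitosis through CHR elements and CCAAT boxes, which bind the DREAM, B-MYB and FOXM1 complexes and NF-Y. Cardiac fibroblasts, the matrix-producing cells of the heart wall and valves, divide around birth and become mostly quiescent in the adult.

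The promoters of cell division genes were searched for these motifs. The following windows run from 250 bases before to 50 bases after an annotated start of a gene, which can have several (RefSeq, GRCm38.p6). They are written 5′ to 3′ along the gene. They belong to the members of the mitosis and DNA replication lists that held the motif and had the largest ratio of cycling to resting level. In the first 3, which are mitosis genes, capitals mark matches to the CHR-like letters TTTGAA and to CCAAT on either strand.
Kif4, chrX:100625815-100626114, plus strand: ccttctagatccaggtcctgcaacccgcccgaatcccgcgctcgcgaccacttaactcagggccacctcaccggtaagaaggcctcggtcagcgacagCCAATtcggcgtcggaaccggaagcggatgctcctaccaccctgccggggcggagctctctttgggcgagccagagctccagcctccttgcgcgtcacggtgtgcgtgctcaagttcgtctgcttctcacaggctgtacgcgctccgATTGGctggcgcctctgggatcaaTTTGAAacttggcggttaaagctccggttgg
Kif2c, chr4:117178723-117179022, minus strand: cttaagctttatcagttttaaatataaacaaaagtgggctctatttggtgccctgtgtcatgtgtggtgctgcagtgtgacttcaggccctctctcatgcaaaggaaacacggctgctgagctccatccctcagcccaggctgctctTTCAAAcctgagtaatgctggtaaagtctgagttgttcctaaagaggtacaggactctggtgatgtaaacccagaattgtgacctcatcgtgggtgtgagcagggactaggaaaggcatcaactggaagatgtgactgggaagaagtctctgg
Ndc80, chr17:71526808-71527107, minus strand: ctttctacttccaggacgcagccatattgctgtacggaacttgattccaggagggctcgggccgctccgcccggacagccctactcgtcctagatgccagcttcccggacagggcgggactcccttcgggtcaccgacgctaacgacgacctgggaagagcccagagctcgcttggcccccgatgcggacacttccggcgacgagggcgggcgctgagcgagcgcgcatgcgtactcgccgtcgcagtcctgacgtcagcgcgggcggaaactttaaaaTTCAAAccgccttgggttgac
In the other 3, which are replication genes, capitals mark only E2F-like letters, namely TTCCCGC as well as TTCGCGC, and likewise TTGCCGC as well as TTGGCGC, on either strand.
Rrm2, chr12:24708004-24708303, plus strand: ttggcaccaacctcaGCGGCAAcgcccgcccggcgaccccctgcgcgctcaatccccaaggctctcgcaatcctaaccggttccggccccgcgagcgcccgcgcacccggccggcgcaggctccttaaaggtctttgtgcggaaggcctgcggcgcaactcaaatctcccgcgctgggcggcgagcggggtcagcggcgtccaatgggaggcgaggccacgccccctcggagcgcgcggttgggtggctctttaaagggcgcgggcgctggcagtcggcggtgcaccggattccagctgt
Clspn, chr4:126556730-126557029, plus strand: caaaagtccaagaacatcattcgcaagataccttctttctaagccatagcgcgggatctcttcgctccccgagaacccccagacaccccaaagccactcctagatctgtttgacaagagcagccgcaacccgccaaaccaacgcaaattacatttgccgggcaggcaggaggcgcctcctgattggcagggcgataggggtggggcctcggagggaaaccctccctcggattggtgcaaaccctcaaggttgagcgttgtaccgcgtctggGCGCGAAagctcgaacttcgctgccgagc
Uhrf1, chr17:56303087-56303386, plus strand: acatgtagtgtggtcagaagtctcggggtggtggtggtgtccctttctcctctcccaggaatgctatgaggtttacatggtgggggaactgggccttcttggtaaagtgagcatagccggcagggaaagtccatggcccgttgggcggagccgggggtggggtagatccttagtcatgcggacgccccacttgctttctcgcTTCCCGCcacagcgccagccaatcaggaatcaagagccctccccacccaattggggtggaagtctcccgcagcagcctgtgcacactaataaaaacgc

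Kif4 held a CHR-like match together with 2 CCAAT matches, whereas the windows of Kif2c and Ndc80 held 1 CHR-like match and 0 CCAAT matches. The Kif2c window belongs to a start inside the gene (chr4:117159639-117182639, minus strand), not to its outermost start. Over the 72 windows of the mitosis list (65 genes with an entry), 61.1% held a CHR-like match and 69.4% a CCAAT match. Among all 32851 promoters the same letters occurred in 17.9% and 37.4% of windows. CHR-like and CCAAT letters stood together in 48.6% of mitosis windows, against 6.95% of all windows. Of the 54 replication windows (45 genes), 61.1% held an E2F-like match, against 23.6% of mitosis windows and 9.57% of all. CHR-like letters occurred in 16.7% of the replication windows, close to their share among all promoters, and CCAAT occurred in 53.7% of them, between its shares in mitosis windows and in all windows. On the opposite strand TTGGCGC ends in letters that CCAAT begins with, so a stretch can match both, and a match is a description of letters, not a binding site.

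Technical replicate 1 held 111 cycling and 361 resting fibroblasts, and technical replicate 2 held 82 and 357. The counts summed to 851207 and 656968 in cycling cells and to 1933705 and 1979961 in resting cells. Cycling cells were deeper, with a median of 7719 counts and 2932 genes against 5268.5 counts and 2217.5 genes in resting cells. When every cell was thinned to 2000 counts, the median number of genes was 1141.5 in cycling and 1116 in resting cells, a smaller gap. The mitochondrial share was alike in the 2 classes, with medians of 3.09% and 3.25%. No fibroblast barcode occurred as a fibroblast in both libraries, although 6 fibroblast barcodes recurred among other cells of the opposite library.

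**Figure D1:**
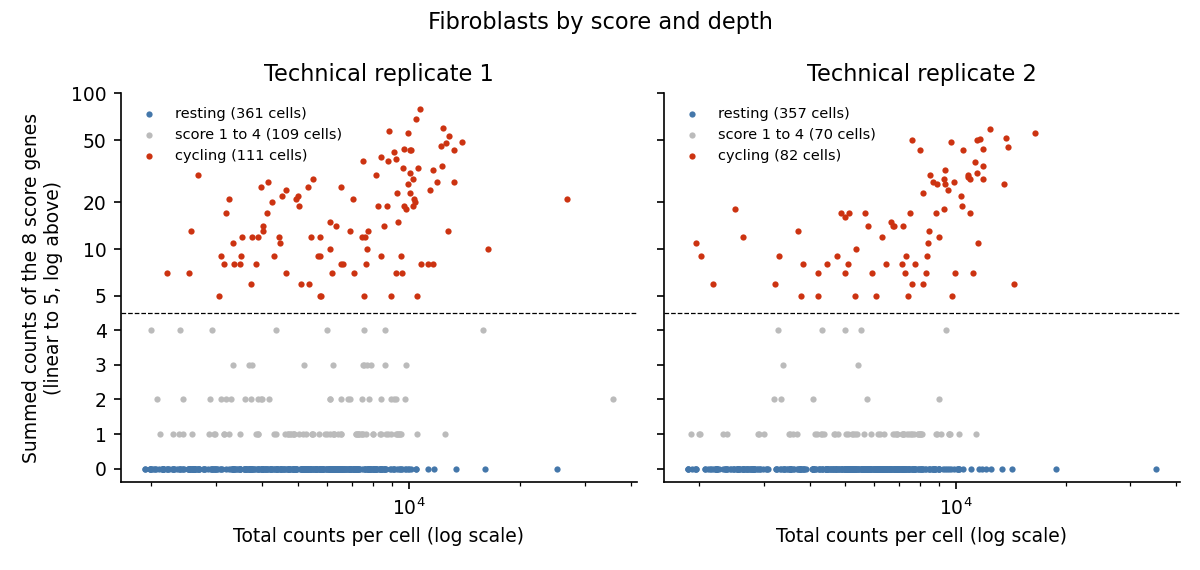
Each point is 1 fibroblast, with its total counts (log scale, horizontal) and its summed counts of the 8 score genes (vertical, linear to 5 and logarithmic above), in technical replicates 1 and 2. Blue points are the 718 resting cells, grey points the 179 cells that scored 1 to 4 and red points the 193 cycling cells above the dashed line. The cycling cells include more of the deep cells, and their scores run from 5 to 79.

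The selection itself behaved as its rule sets. Top2a, the DNA topoisomerase of dividing cells, stood at 698 and 714 CPM (counts of a gene scaled to 1000000 counts per class and replicate) in cycling cells of replicates 1 and 2, and Mki67 at 367 and 359 CPM. Both were 0 in resting cells by definition. Col3a1, a fibrillar collagen of fibroblasts, stood at 6531 and 6462 CPM in cycling and 7769 and 8146 CPM in resting cells, and Tcf21, the fibroblast transcription factor, at 484 and 484 CPM against 541 and 585 CPM. Both classes therefore carried the fibroblast genes that chose them.

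Markers of other cell types were present in both classes, and the summed glial markers were higher in cycling cells in both replicates. The 10 cardiomyocyte markers summed to 1564 and 1256 CPM in cycling and 1512 and 1451 CPM in resting cells. Endothelial markers summed to 168 and 233 CPM against 178 and 224 CPM. Macrophage and leukocyte markers summed to 27.0 and 35.0 CPM in cycling cells, where Cd68 and Ptprc were at 0, and to 130.3 and 22.2 CPM in resting cells. Epicardial markers summed to 317 and 142 CPM against 209 and 398 CPM, so that neither class was higher in both replicates. Pericyte markers summed to 499 and 715 CPM against 560.1 and 561 CPM, and smooth muscle markers to 1178 and 1763 CPM against 1180.1 and 1259 CPM. Over all barcodes of the libraries, smooth muscle markers summed to 766 CPM and epicardial markers to 105 CPM, below both classes of fibroblasts. In an alternative setting, cells with at least 2 counts of selected leukocyte (Ptprc, Tyrobp, C1qa, C1qb), endothelial (Kdr, Tie1, Emcn) or epicardial markers (Upk3b, Msln) were left out. This kept 190 cycling and 707 resting cells. Of the 301 higher and 44 lower genes described below, 292 and 34 kept their call there. The part of the remaining markers in the results below was not tested. Erythroid markers summed to 89.3 and 86.8 CPM against 90.5 and 80.8 CPM, with Slc4a1 and Tspo2 at 0 in both classes. Glial and neuronal markers summed to 59.9 and 54.8 CPM against 18.1 and 20.7 CPM. Almost all of the glial difference came from Fabp7, a fatty acid binding protein, at 47.0 and 44.1 CPM against 6.72 and 7.07 CPM, while the defining glial gene Sox10 was at 0 in both classes. Among the markers of these lists that were abundant enough to compare, Fabp7 alone was more than 2-fold apart in both replicates.

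Cycling cells made up 17.7% of fibroblasts (95% exact binomial interval 15.5 to 20.1%), or 19.1% in replicate 1 and 16.1% in replicate 2. The score is a count, so this share moves with depth: after thinning to 2000 counts it was 9.41% (101 of 1073 cells, 17 shallower cells left out), with 10.8% and 7.82% in the 2 replicates. A limit of 10 counts gave 12.0% without thinning. Endothelial cells of the same libraries, chosen with at least 2 counts of Pecam1 plus Cdh5 and 0 counts of Tcf21, Dpt, Lum and Pdgfra, had a cycling share of 34.8% (256 of 736 cells) at a median of 8159.5 counts. At 2000 counts per cell their share was 8.21% (60 of 731 cells). At a limit of 3 counts, the thinned shares were 13.98% of fibroblasts and 18.5% of endothelial cells, so no order of the 2 cell types is read from these shares. These and all later intervals cover counting error only.

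Gene levels were then compared as CPM of the counts summed over the cells of a class in each technical replicate. A gene was examined where its mean over the 4 sums was at least 20 CPM and it had at least 20 counts in each replicate, which 6261 genes met. It is called higher or lower where cycling and resting levels differed at least 2-fold in both replicates. By this rule 301 genes (4.81%) were higher and 44 genes (0.703%) lower in cycling fibroblasts. With shares this low, a list with 0 or few calls need not differ from the other genes. With the limit applied in 1 replicate alone, 404 genes were higher and 156 lower without replicate 1, and 353 and 162 without replicate 2. The median log2 ratio over all genes examined was -0.03, and 2927 of the 6261 genes had a ratio above 1. The 7 lists of cell division functions hold 221 of the 6261 genes examined, 144 of the 301 higher genes and 2 of the 44 lower genes. A gene of dividing cells can pass the filter on low levels through the cycling cells alone and then had to differ, so the members of these lists that reach 20 CPM in resting cells are also counted on their own. In the same way a lower gene can pass through the resting cells alone, and such genes among the 44 were not counted. Tgfbi, Socs3 and C3, named below, are of this kind, with 15.9, 12.6 and 1.99 CPM in cycling cells.

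**Figure D2:**
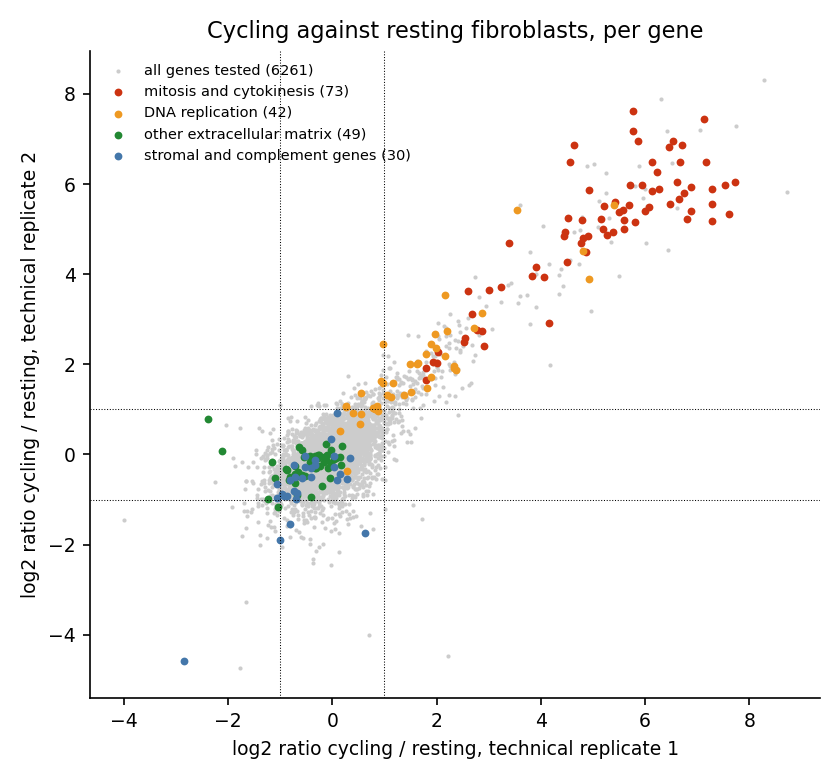
Each point is 1 of 6261 genes, with the log2 ratio of cycling to resting level in technical replicate 1 (horizontal) and replicate 2 (vertical), and dotted lines mark 2-fold. Mitosis genes (red) lie in the upper right, replication genes (orange) between them and the bulk, and most matrix (green) and stromal (blue) genes slightly to the lower left of the origin.

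Mitosis and cytokinesis genes formed the largest difference. Their 76 measured members summed to 14440 and 14040.3 CPM in cycling cells and 977 and 985 CPM in resting cells, a ratio of 14.5 (95% interval 14.1 to 15.1). All 73 members examined were higher (the other 3 did not reach the filter), with a median log2 ratio of 5.49. Of these, 12 members reached 20 CPM in resting cells as well, and each of the 12 was higher. The score genes belong to the same phase of the cycle, so this list is closest to the choice of the cells.

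Several motor and kinetochore genes were all but unseen in resting cells. Kif4, a chromosome-bound kinesin, stood at 81.1 and 71.5 CPM in cycling cells and was counted 1 time in all resting cells (0.517 and 0 CPM), a ratio of 301 with an interval from 53.0 to 11991. Kif2c, a kinesin that shortens microtubules at kinetochores, stood at 61.1 and 63.9 CPM against 0.517 and 0 CPM, and Ndc80, a microtubule-binding kinetochore subunit, at 57.6 and 56.3 CPM against 0.517 and 0 CPM. Kif11, the motor that pushes the spindle poles apart, stood at 122 and 92.9 CPM against 1.03 and 0 CPM. Cep55, which works at the midbody when the daughter cells part, stood at 38.8 and 59.4 CPM against 0 and 0.505 CPM. Their resting levels rest on 1 or 2 counts each, so the size of these ratios is poorly bounded. Bub1b, a kinase of the spindle checkpoint, stood at 75.2 and 48.7 CPM in cycling cells and had 0 counts in resting cells. Set against a floor of 3 counts over the resting class, its ratio was 83.0, a size that depends on the floor.

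More abundant members gave tighter ratios. Cks2 (chr13:51645232-51650660), a small protein that binds cyclin-dependent kinases, stood at 890.5 and 886 CPM in cycling cells and at 24.3 and 27.8 CPM in resting cells, 34.1-fold higher (27.9 to 42.1). The level of Cks2 climbed through the score classes, from 73.2 CPM in cells that scored 1 to 4 to 507 CPM at 5 to 9, 652 CPM at 10 to 19 and 1203 CPM at 20 or more. Birc5 (survivin), a member of the chromosomal passenger complex, stood at 559 and 572 CPM against 7.24 and 9.6 CPM (67.0-fold, 47.3 to 98.0). Cdk1, the mitotic kinase, stood at 339.5 and 368 CPM against 22.8 and 20.7 CPM (16.2-fold, 12.9 to 20.6). The 2 ubiquitin-conjugating enzymes of the anaphase-promoting complex differed in their resting levels: Ube2c stood at 656 and 671 CPM against 9.31 and 11.6 CPM, but Ube2s at 835 and 804 CPM against 207 and 198 CPM (4.05-fold, 3.71 to 4.44). Ube2s was thus well expressed in cells without a single count of the score genes.

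DNA replication genes were higher by less. Their 55 measured members summed to 3534 and 4012 CPM in cycling and 1263 and 1175 CPM in resting cells, a ratio of 3.07 (2.95 to 3.19). Of 42 examined members 26 were higher and 0 lower, and all 42 had a ratio above 1 (median log2 ratio 1.71). Among the 24 that reached 20 CPM in resting cells, 10 were higher, as were 16 of the 18 that passed the filter through cycling cells only, while 13 members did not pass it.

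The size of the difference varied widely among the replication genes. Tk1 (chr11:117815526-117826092), the thymidine salvage kinase, stood at 196 and 233 CPM in cycling cells against 4.65 and 5.05 CPM (43.7-fold, 27.5 to 73.6). Rrm2, the regulated subunit of ribonucleotide reductase, stood at 157 and 174 CPM against 5.17 and 11.6 CPM (19.5-fold). Tyms, which makes thymidylate, stood at 139.8 and 159.8 CPM against 19.1 and 18.2 CPM (7.96-fold). Dut, another enzyme of nucleotide supply, was 3.53-fold higher (3.0 to 4.17). Dbf4, the activating partner of the origin kinase Cdc7, stood at 146 and 116 CPM against 5.17 and 5.05 CPM (25.9-fold), and Clspn, a checkpoint adaptor at the replication fork, at 54.0 and 65.5 CPM against 4.65 and 1.52 CPM.

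Other members differed by less. Mcm2, a subunit of the replicative helicase, stood at 39.9 and 51.8 CPM against 27.4 and 27.8 CPM, a ratio of 1.63 (1.19 to 2.23). Mcm6, another subunit, had a ratio of 1.56 (1.20 to 2.02) and Mcm5 one of 2.40 (1.71 to 3.34), but neither was 2-fold higher in replicate 1. Fen1, the flap endonuclease, was 4.48-fold higher (3.18 to 6.37). Pcna, the sliding clamp, was higher, at 54.0 and 105 CPM against 19.1 and 26.3 CPM. Slbp, which binds histone mRNA stem-loops, stood at 215 and 233 CPM against 103 and 93.9 CPM (2.26-fold, 1.95 to 2.62), and Tipin, a fork protection factor, at 179 and 218 CPM against 103 and 107 CPM, a ratio of 1.86. Slbp and Tipin were thus present at appreciable levels in resting cells, unlike Tk1 or Rrm2.

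The level of the 2 lists changed differently along the score. The mitosis list summed to 981 CPM at a score of 0, 2092 CPM at 1 to 4, 7776 CPM at 5 to 9, 12172 CPM at 10 to 19 and 18669 CPM at 20 or more. The replication list went from 1219 to 2467, 4067 and 4971 CPM and then stood lower, at 2970.4 CPM, in the 76 cells that scored 20 or more. Both replicates had this shape, with replication sums of 4736 and 5275 CPM at 10 to 19 and 2611 and 3476 CPM at 20 or more. Slbp followed it, with 323 CPM at 10 to 19 and 159 CPM at 20 or more, and so did Rrm2 (250.1 and 132 CPM). Dbf4 did not, with 141 CPM at 10 to 19 and 173 CPM at 20 or more. Cells in the highest score class were also the deepest, with a median of 10059.5 counts against 6327 at 10 to 19.

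At equal depth the cells fell into combinations of the 2 lists. Of 192 cycling cells thinned to 2000 counts, 118 had at least 5 counts of both lists, 72 of the mitosis list only, 2 of the replication list only and 0 of neither. Resting cells with at least 5 replication counts were 11.5% of the class (81 of 705), against 31.8% of cells that scored 1 to 4 (56 of 176) and 62.5% of cycling cells. At least 5 mitosis counts were found in 6.52% of resting cells, 34.1% of the cells between and 99.0% of cycling cells. A score of 0 therefore left some cells with several counts of division genes in the resting class, where the median was 2 counts of each list. Whether those cells were dividing was not tested. Next to the limit, the 13 cells that scored 4 had 4852 CPM of the mitosis list and the 12 cells that scored 5 had 5254 CPM, so the limit cuts a continuous range.

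**Figure D3:**
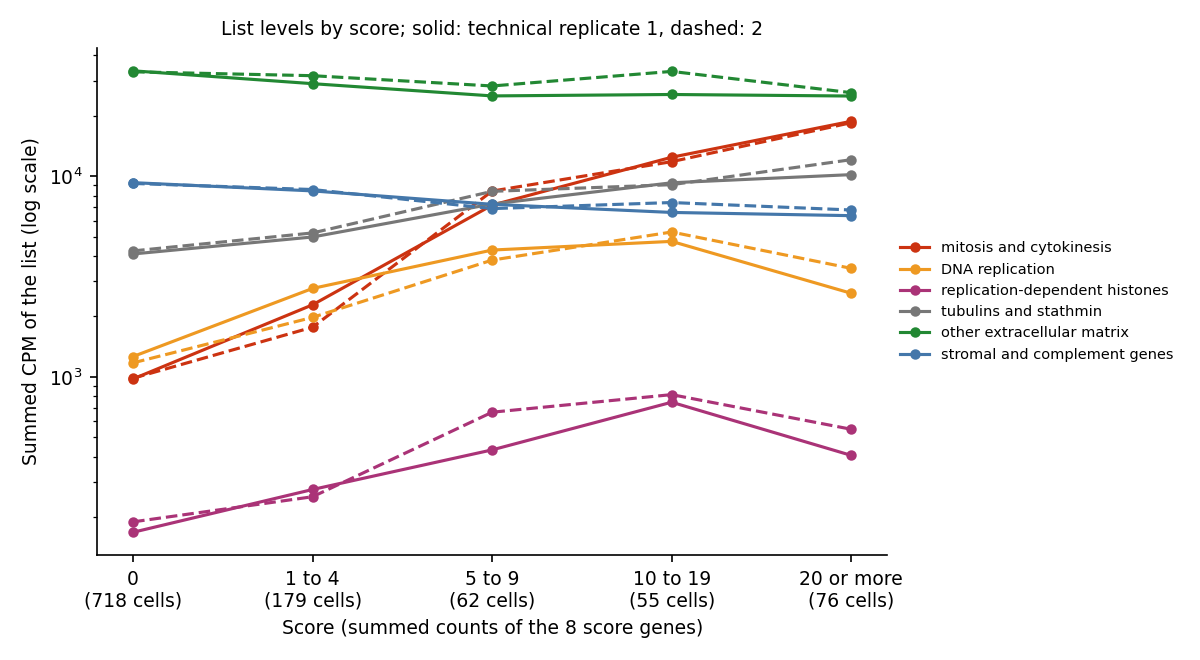
The summed CPM of 6 gene lists (log scale, vertical) is plotted over 5 classes of the proliferation score (horizontal, with the cells in each), with technical replicate 1 as solid and replicate 2 as dashed lines. Mitosis genes climb from 981 to 18669 CPM, replication and histone genes peak at scores of 10 to 19, and stromal genes decline from 9251 to 6541 CPM.

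Replication-dependent histones, which package newly made DNA, had the same shape. Their sum was 179 CPM at a score of 0, 777 CPM at 10 to 19 and 465 CPM at 20 or more. Most of their mRNAs lack the poly(A) tail by which the libraries capture RNA, and only 6 of 66 measured genes were abundant enough to examine, of which 4 were higher. Of the 3 that reached 20 CPM in resting cells, 1 was higher. The linker histone Hist1h1b stood at 86.9 and 94.4 CPM in cycling cells against 1.55 and 0 CPM, and Hist1h1e at 69.3 and 85.2 CPM against 10.3 and 5.56 CPM. Hist1h1c stood at 116 and 155 CPM against 41.9 and 42.9 CPM (3.14-fold), and the core histone Hist1h2al at 38.8 and 56.3 CPM against 3.62 and 4.04 CPM. Hist1h2bc did not differ in one direction, at 38.8 and 97.4 CPM against 48.1 and 67.2 CPM. Single histone values are uncertain, since reads can be shared between near-identical copies.

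Chromatin and nuclear proteins held 22 higher and 0 lower genes among 47 examined (49 measured), and summed to 31074 and 32303 CPM in cycling and 15075 and 15242 CPM in resting cells (ratio 2.09, 2.06 to 2.11). Of 42 members that reached 20 CPM in resting cells, 18 were higher. Hmgb2 (chr8:57511907-57515999), a DNA-bending protein, stood at 1903 and 1829.6 CPM against 160.3 and 179 CPM (11-fold, 10.1 to 12.0). The variant histone H2afx, known for marking DNA breaks, stood at 712 and 642 CPM against 35.2 and 40.4 CPM, and H2afz at 4187 and 3961 CPM against 742 and 741 CPM (5.51-fold). Asf1b, a histone chaperone of replicating cells, stood at 92.8 and 117 CPM against 1.03 and 1.01 CPM, and Atad2, a bromodomain protein, at 103 and 114 CPM against 13.4 and 11.6 CPM. The nuclear lamina was unevenly affected. Both B-type lamins were higher, Lmnb1 at 288 and 306 CPM against 60.5 and 49.0 CPM and Lmnb2 at 39.9 and 51.8 CPM against 6.21 and 9.6 CPM, while Lmna had a ratio of 1.09 (0.977 to 1.22). Ptma, an abundant nuclear protein, stood at 4336 and 4621 CPM against 2810.2 and 2848 CPM, a ratio of 1.58 (1.53 to 1.63).

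DNA repair genes summed to 1117 and 1079 CPM in cycling and 391 and 381 CPM in resting cells (ratio 2.85, 2.66 to 3.06). They had 8 higher and 0 lower members among 13 examined, while 20 of 33 measured did not reach the filter. Among the 7 that reached 20 CPM in resting cells 2 were higher, and the 6 that passed through cycling cells only were all higher. The helicase Blm had a ratio of 5.65 (3.56 to 9.19) and the ubiquitin ligase Rad18 one of 4.51 (2.98 to 6.91). Rad21, the cohesin subunit that holds sister chromatids, stood at 309 and 268 CPM against 56.9 and 55.6 CPM (5.18-fold). Parp1, an early sensor of strand breaks, differed by less than 2-fold, at 52.9 and 59.4 CPM against 41.4 and 39.4 CPM.

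Tubulins, the building blocks of the spindle, differed isoform by isoform. The 15 tubulin and stathmin genes summed to 9263 and 10325 CPM in cycling and 4100 and 4246 CPM in resting cells (ratio 2.33), with 6 of 12 examined higher and 0 lower, or 5 of the 11 that reached 20 CPM in resting cells. Tuba1c stood at 147 and 166 CPM against 7.24 and 14.1 CPM (14.5-fold, 10.4 to 20.6), and Tuba1b at 2001 and 2286 CPM against 523 and 565 CPM (3.90-fold). Tuba1a, another alpha-tubulin of nearly the same protein sequence, stood at 1540.2 and 1845 CPM against 1513 and 1564 CPM, a ratio of 1.09 (1.04 to 1.14). Among beta-tubulins the ratios were 4.42 for Tubb4b, 3.31 for Tubb6 and 2.36 for Tubb5 (2.25 to 2.46). Stmn1, which destabilises microtubules, stood at 1589.5 and 1801 CPM against 268 and 258 CPM (6.40-fold, 5.95 to 6.88). Tubulin mRNAs are similar in their coding parts, so that some reads may be shared between isoforms. Actin and contractile genes, the other cytoskeletal list, held 0 higher and 0 lower genes among 21 examined, with a sum ratio of 1.03. Over all genes examined, 4.81% were higher and 0.703% lower.

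**Figure D4:**
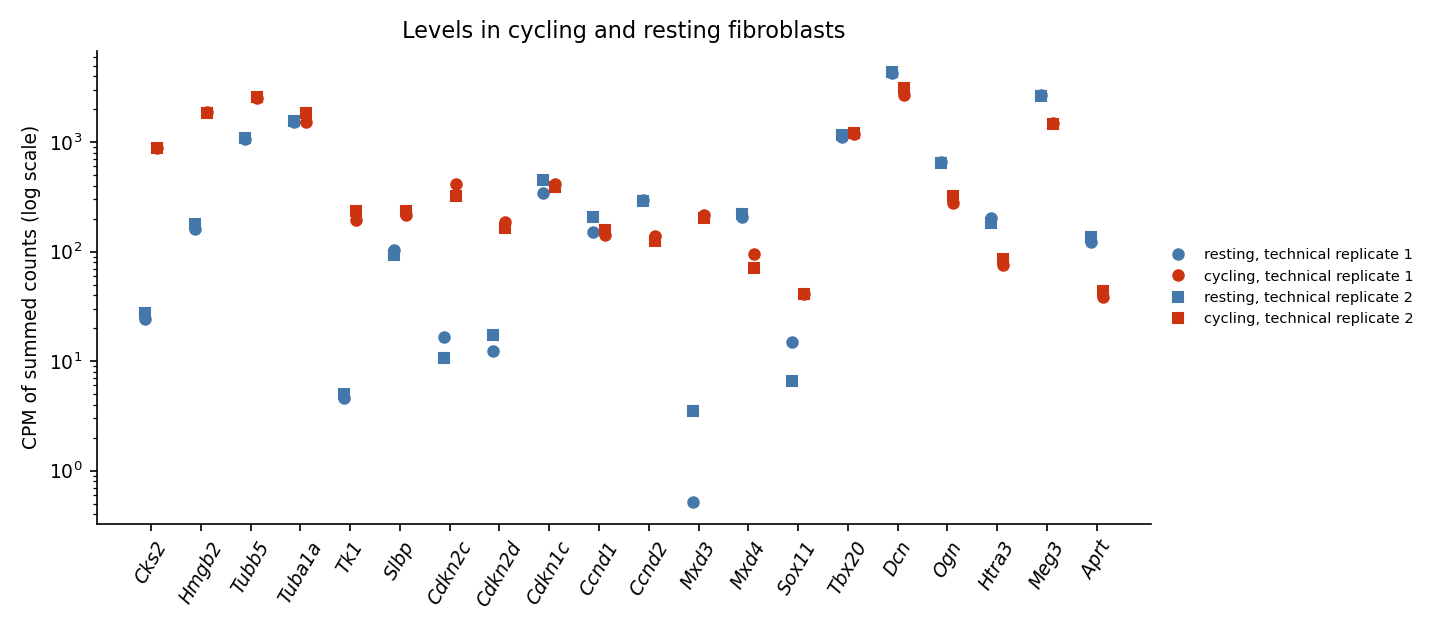
Levels of 20 genes are plotted as CPM of summed counts (log scale, vertical), with resting cells in blue and cycling cells in red, and with technical replicate 1 as circles and replicate 2 as squares. Cks2, Hmgb2, Tk1, Cdkn2c, Cdkn2d and Mxd3 are higher in cycling cells, Ccnd2, Mxd4, Htra3 and Aprt are lower, and Tuba1a, Cdkn1c and Tbx20 are close together.

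Regulators of the cycle moved in both directions. Of 45 measured, 29 were examined, 6 were higher and 2 lower, and the median log2 ratio was 0.20. The higher members all passed the filter through cycling cells only. They include the transcription factors of the late cell cycle: Foxm1 stood at 55.2 and 47.2 CPM against 2.59 and 3.54 CPM, and Mybl2 (B-MYB) at 52.9 and 50.2 CPM against 1.55 and 1.52 CPM. Fbxo5 (Emi1), an inhibitor of the anaphase-promoting complex, stood at 96.3 and 105 CPM against 1.55 and 2.02 CPM.

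Among the inhibitors of cyclin-dependent kinases, 2 of the INK4 family were higher in cycling cells. Cdkn2c (chr4:109660876-109667189), which encodes p18, stood at 414 and 323 CPM against 16.5 and 10.6 CPM, 27.6-fold higher (20.8 to 37.3). Cdkn2d (chr9:21288410-21291407), which encodes p19, stood at 187 and 166 CPM against 12.4 and 17.2 CPM (12.0-fold, 9.0 to 16.2). Both proteins are known to bind Cdk4 and Cdk6 and to restrain entry into the cycle. Cdkn2c increased along the score, from 34.8 CPM at 1 to 4 to 179 CPM at 5 to 9 and 499 CPM at 20 or more. Cdkn1c, which encodes the inhibitor p57, did not follow: it stood at 414 and 388 CPM in cycling and 345 and 454 CPM in resting cells (ratio 1.01, 0.914 to 1.10), with the replicates on opposite sides of 1.

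The D-type cyclins, which partner Cdk4 and Cdk6 at the start of the cycle, were not higher in cycling cells. Ccnd2 (chr6:127125162-127152193) was lower, at 139.8 and 125 CPM against 298 and 287 CPM (ratio 0.456, 0.390 to 0.530), with 220 CPM in the cells that scored 1 to 4. Ccnd3 stood at 188 and 161 CPM against 247 and 245 CPM, and Ccnd1 at 142 and 158 CPM against 153 and 209 CPM, both less than 2-fold apart. Gas6, a secreted ligand first described in growth-arrested fibroblasts, was lower, at 30.5 and 22.8 CPM against 65.2 and 73.7 CPM (ratio 0.391, 0.275 to 0.545). Gas1, another growth-arrest gene, stood at 601 and 511 CPM against 617 and 624 CPM and was not lower by this rule.

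Fibroblast matrix genes were modestly lower in cycling cells as groups, and few passed 2-fold. Collagens other than those of the rule summed to 7733 and 7737 CPM in cycling and 8171 and 8424 CPM in resting cells (ratio 0.932, 0.912 to 0.952), with 0 higher and 0 lower among 17 examined. Other matrix genes summed to 25236 and 28455 CPM against 33548 and 33169 CPM (ratio 0.799, 0.790 to 0.808), and 5 of 49 had a ratio above 1. Matrix processing genes had a sum ratio of 0.791 (0.775 to 0.808), and stromal and complement genes one of 0.733 (0.717 to 0.749). The 2 lists of matrix and stromal genes had median log2 ratios of -0.31 and -0.54 against -0.03 over all genes. Their lower genes were 1 of 49 and 2 of 30 examined, against 0.703% of all genes examined.

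Within the matrix, members differed in size and in direction, and 6 of 17 collagens had a ratio above 1. Dcn, the small proteoglycan decorin, stood at 2708 and 3114 CPM against 4254 and 4347 CPM (ratio 0.671, 0.649 to 0.694). Ogn, a related proteoglycan, stood at 281 and 324 CPM against 661 and 646 CPM (ratio 0.459), but missed 2-fold in replicate 2 at 0.502. Sparc, a collagen-binding glycoprotein, had a ratio of 0.839 (0.815 to 0.865). Col4a1, of basement membranes, was on the other side, at 821 and 883 CPM against 629.9 and 709 CPM (ratio 1.27, 1.18 to 1.35). Tgfbi, an adhesion protein, was lower at 17.6 and 13.7 CPM against 36.2 and 30.8 CPM, a call that ended in 8 of 17 alternative settings. Fmod, a proteoglycan of valves and tendons, went opposite ways in the replicates, at 12.9 and 74.6 CPM against 67.7 and 43.4 CPM. Fmod is 1 of 4 valve and tendon-like genes examined of 19 measured, which held 0 higher and 0 lower genes and had median log2 ratios of -0.13 and 0.28 in the replicates.

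Htra3 (chr5:35652023-35679782), a secreted serine protease, was the lower member of the processing list, at 75.2 and 85.2 CPM against 203 and 181 CPM (ratio 0.415, 0.339 to 0.503). It missed the limit in 3 of 17 alternative settings. Serpinh1, the collagen chaperone, stood at 1028 and 1136 CPM against 1509 and 1596 CPM (ratio 0.692). The complement gene C3 was uneven across cells and settings. It was counted 3 times in cycling and 265 times in resting cells, but the resting counts came from 14 of 718 cells, of which 1 cell held 26.8%, and the call ended in 8 of 17 alternatives. In the replicates of resting cells the epicardial markers summed to 209 and 398 CPM, with Upk3b at 12.9 and 102 CPM beside C3 at 25.3 and 109 CPM. The epicardial marker Aldh1a2 was nearly level there, at 159 and 169 CPM. In cycling cells Upk3b stood at 59.9 and 4.57 CPM beside C3 at 3.52 and 0 CPM. Leaving out cells with at least 2 counts of selected leukocyte, endothelial or epicardial markers was 1 of the 8 settings that ended the call. The part of epicardial RNA alone in this result was not tested. The adventitial-type genes Gsn, Clec3b and Pi16 had ratios of 0.544, 0.532 and 0.533 without passing 2-fold in both replicates.

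Transcription factors of the fibroblast programme were largely level between the classes. Of 43 examined, 1 was higher and 0 were lower, against 4.81% and 0.703% of all genes examined. Among the 43, 22 had a ratio above 1, and the list had a sum ratio of 0.977. Tbx20, a cardiac T-box factor, stood at 1182 and 1212 CPM against 1108 and 1156 CPM (ratio 1.06, 0.998 to 1.11), and Sox9, a factor of valve cells, at 277 and 212 CPM against 283 and 241 CPM. Sox11, a factor of progenitor cells, was the higher member, at 41.1 and 41.1 CPM against 15.0 and 6.57 CPM (3.83-fold, 2.55 to 5.81). It passed the filter through cycling cells only, and 0 of the 41 factors that reached 20 CPM in resting cells were higher. In the cells that scored 1 to 4 Sox11 stood at 9.15 CPM, at the resting level, and it was 30.8 CPM at scores of 5 to 9. Nr2f2 and Snai2 had ratios of 1.72 (1.38 to 2.14) and 1.69 (1.36 to 2.1). Klf2, a factor best known from endothelium under flow, stood at 264 and 312 CPM against 546 and 552 CPM (ratio 0.519) and did not reach 2-fold in replicate 2.

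Signalling, imprinted and stress genes held 1 lower gene and 0 higher genes over 4 lists, against 0.703% lower and 4.81% higher among all genes examined. Of 37 growth factor ligands and receptors examined 0 passed in either direction, and 10 had a ratio above 1. The 14 imprinted growth genes examined likewise held 0 calls, yet their sum was lower, at 6163 and 5915 CPM against 8010 and 8183 CPM (ratio 0.748, 0.730 to 0.765). Meg3, a maternally expressed noncoding RNA (chr12:109541001-109571726), carried most of this, at 1497 and 1451 CPM against 2678 and 2618 CPM (ratio 0.558, 0.533 to 0.584). The growth factor Igf2 and the noncoding H19, neighbours in 1 imprinted cluster, had ratios of 0.706 (0.624 to 0.797) and 0.693 (0.653 to 0.736). The immediate early genes, which respond to tissue dissociation as well as to growth factors, held 1 lower gene among 17. This was Socs3, a cytokine feedback inhibitor, at 11.7 and 13.7 CPM against 34.1 and 31.8 CPM, lost in 4 of 17 alternatives. Socs3 passed the filter through resting cells only. Fos stood at 77.5 and 98.9 CPM against 249 and 169 CPM but missed 2-fold in replicate 2. Heat shock genes had 0 calls among 13.

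Metabolic and translation genes held 0 higher and 0 lower genes, against 4.81% and 0.703% of all genes examined. Glycolysis genes had a sum ratio of 0.869 (0.828 to 0.911) over 22 measured members. Aldoa, the glycolytic aldolase, stood at 141 and 175 CPM against 323 and 331 CPM (ratios of 0.437 and 0.528), whereas Ldha had a ratio of 0.917 (0.815 to 1.03). The 94 nuclear genes of oxidative phosphorylation had a sum ratio of 0.998 (0.987 to 1.01). Ribosomal protein genes summed to 161172 and 150009 CPM in cycling and 175628 and 176215 CPM in resting cells (ratio 0.889, 0.884 to 0.893), and 2 of 76 had a ratio above 1. Mitochondrially encoded genes were on opposite sides in the replicates, with sum ratios of 1.13 and 0.935.

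Outside the lists, the genes with the largest ratios at a mean of at least 50 CPM had roles in division, DNA repair or transcription. Aspm, a spindle pole protein, stood at 122 and 120.2 CPM against 0 and 0.505 CPM. Neil3, a DNA glycosylase, stood at 137 and 148 CPM against 1.03 and 1.01 CPM. Pimreg stood at 221 and 157 CPM against 1.03 and 1.01 CPM, Knstrn, a kinetochore adaptor, at 170.3 and 139 CPM against 2.59 and 3.03 CPM, and Gas2l3, a cytoskeletal linker of cytokinesis, at 134 and 91.3 CPM against 2.07 and 3.54 CPM. Pclaf, which binds Pcna, stood at 1058 and 1113 CPM against 16.5 and 18.7 CPM (61.4-fold, 48.2 to 79.3).

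Among these genes were 2 of the Mxd family, repressors that compete with Myc for its partner Max, which differed in opposite directions. Mxd3 (chr13:55325168-55329823) stood at 217 and 201 CPM in cycling and 0.517 and 3.54 CPM in resting cells (103-fold, 51.6 to 240.2). Mxd4 (chr5:34173883-34187720) stood at 95.2 and 71.5 CPM in cycling and 206 and 219 CPM in resting cells (ratio 0.400, 0.329 to 0.482). Along the score, Mxd3 went from 2.04 to 16.5, 97.4, 231 and 259 CPM while Mxd4 went from 212 to 173, 113, 92.4 and 66.7 CPM. The difference in Mxd4 fell short of the 2-fold rule among cells of 4000 to 12000 counts and without the deepest 5% of cells.

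The remaining lower genes at this level were Aprt, Ypel3 and Gpr180. Aprt (chr8:122574635-122576909), the adenine salvage enzyme, stood at 38.8 and 44.1 CPM against 122 and 137 CPM (ratio 0.318, 0.240 to 0.415). It declined along the score, from 116 CPM at 1 to 4 to 69.2, 48.9 and 22.7 CPM in the 3 classes above. Ypel3, of the yippee family of small proteins, stood at 81.1 and 63.9 CPM against 192 and 188 CPM, and Gpr180 at 41.1 and 32.0 CPM against 92.6 and 98.0 CPM. Of the 44 lower genes, only these 3 with Mxd4, Ccnd2 and Htra3 had a mean of at least 50 CPM.

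The same contrast was drawn within endothelial cells, 256 cycling and 340 resting, to place the fibroblast values. There 176 of 6345 genes (2.77%) were higher and 92 (1.45%) lower. Of 5325 genes examined in both cell types, 152 were higher in both, which is 152 of the 221 fibroblast and of the 171 endothelial higher genes. Both contrasts were split on the same score genes, and division genes can pass the filter through cycling cells alone in each. This overlap was therefore set in part by the choice of cells. The lower genes overlapped in 2 genes, out of 20 in fibroblasts and 57 in endothelial cells. Mitosis genes had a median log2 ratio of 4.00 in endothelial cells against 5.49 in fibroblasts, and replication genes 1.41 against 1.71. These medians run over unlike members, 56 against 73 mitosis genes and 40 against 42 replication genes. The same limit of 5 counts was applied to deeper cells, with a median of 8159.5 counts in endothelial cells against 5606 in all fibroblasts. The classes were thus not cut alike, and the part of depth in these gaps was not tested. Cdkn2c was 12.9-fold higher in endothelial cells, Mxd3 47.4-fold and Cdkn2d 4.5-fold. Ccnd2 had an endothelial ratio of 0.424, close to the 0.456 of fibroblasts. Aprt and Gpr180 had endothelial ratios of 0.985 and 0.966, and Sox11 one of 1.25, while Cdkn1c was at 0.436 there and at 1.01 in fibroblasts. The differences between the 2 cell types were not tested, since only 1 biological sample exists.

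**Figure D5:**
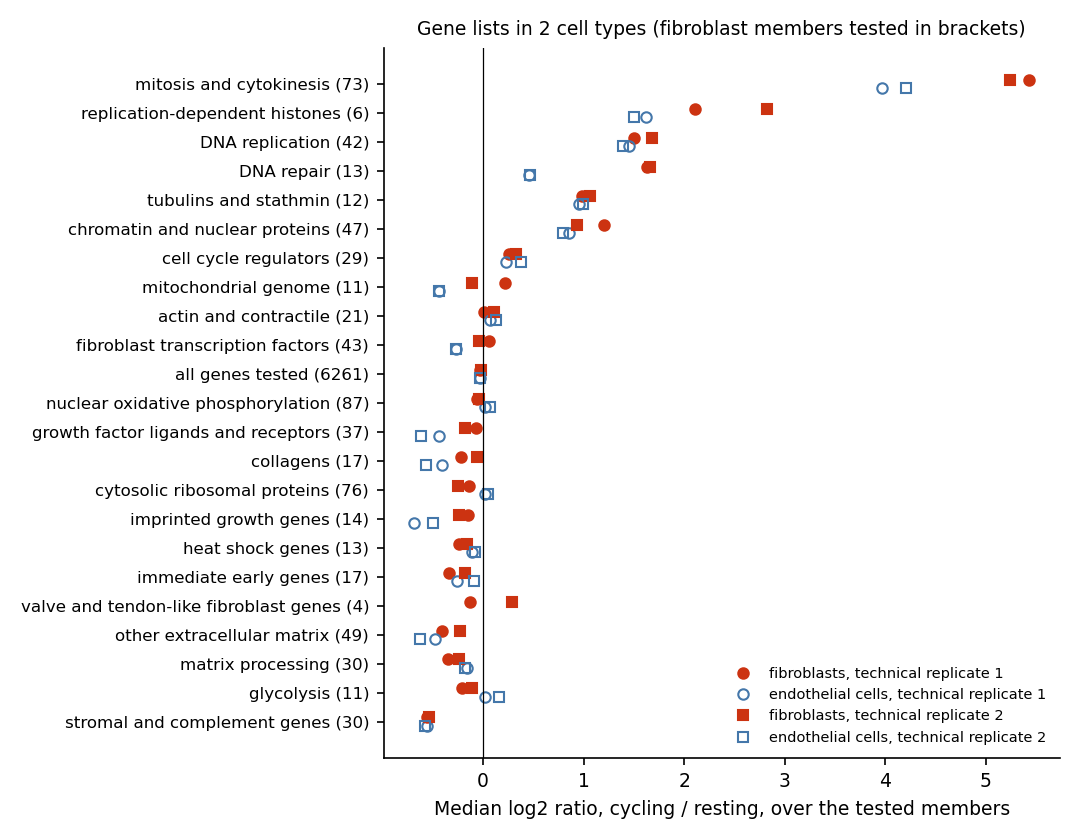
For 22 gene lists and for all genes examined, the median log2 ratio of cycling to resting level is plotted (horizontal), with fibroblasts as filled red and endothelial cells as open blue symbols, and technical replicates 1 and 2 as circles and squares. Brackets give the fibroblast members examined. Mitosis, histone, replication, repair, tubulin and chromatin lists lie to the right in both cell types, and matrix and stromal lists lie to the left of 0.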

How the data were processed

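Cells were captured with the 10x Chromium 3′ version 2 chemistry in 2 libraries, technical replicates of 1 biological sample, so spread between them is technical. Alignment software and assembly appear in the submitters' processing notes as Cell Ranger 2.1.0 and mm10. The deposited values are whole-number counts per gene and barcode, not normalised by the authors. Whether they are UMIs or reads is not given in the sources used here. The internal identifier of the second record is that of the first, whereas its matrix bears another, and matrices were assigned by deposit record.

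Symbols and coordinates came from GENCODE vM21 (GRCm38) for 27645 of 27999 features. Counts were summed per class and library and scaled to CPM. Ratios pool both libraries, with 95% exact conditional binomial intervals that cover counting error only. A level of 0 was set to a floor of 3 counts per library in ratios by replicate and over the class in pooled ratios. No doublet caller was run. Thinning used 1 random draw per cell. The score genes and 14 genes of the fibroblast rule were left out.

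Members and lists were chosen with earlier results of these data known. Named genes are, per list, up to 5 past 2-fold in each direction with the largest ratio and the 2 most abundant, and outside the lists up to 8 in each direction with a mean of at least 50 CPM. Others, such as Bub1b, Birc5, Ube2c, Dut, Fen1, Cdk1, Pcna, the Mcm genes, Lmna, Lmnb1, H2afz, Ogn, Gsn, Clec3b, Pi16, Klf2, Nr2f2, Snai2, Fos, H19, Igf2, Ccnd1 and Ccnd3, were picked with their values in view. For genes with several promoter windows, the printed one held the most matches among windows with a CHR-like (mitosis) or E2F-like (replication) match. The calculation was tested on simulated data. Rian and Cebpd were not analysed here, and some genes that met the naming rule are not reported here. Statistics used scipy 1.17.1 and numpy 2.4.6, tables pandas 2.3.3 and plots matplotlib 3.10.9, all under Python 3.11.15.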

Additional observations from a re-analysis of the deposited data

Results flagged for a closer look

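Median log2 ratios of 3 lists lay on opposite sides of 0 in fibroblasts and endothelial cells, in both technical replicates of each, and none of these differences was tested. For glycolysis genes the median was -0.34 in fibroblasts with both replicates pooled (-0.21 and -0.11 in each) and 0.08 in endothelial cells. Nuclear genes of oxidative phosphorylation had medians of -0.05 and 0.04, and the fibroblast median was 0.002 when cell division genes were left out of the total. Cytosolic ribosomal protein genes had medians of -0.19 and 0.04.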

How the results depend on the processing

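Beside the reported 301 higher and 44 lower genes, a mean of at least 50 CPM gave 140 and 6, a mean of at least 5 CPM gave 383 and 144, and a limit of 1.5-fold gave 474 and 242. With 1 replicate left out, 353 to 404 genes were higher and 156 to 162 lower, because the limit then applies to 1 replicate only. Thinning every cell to 3000 counts gave 219 higher genes, of which 191 were among the 301, and 64 lower genes, of which 23 were among the 44. Cells of 4000 to 12000 counts gave 287 and 41, with 277 and 25 shared. Under both settings a smaller share of the lower than of the higher genes remained. No named gene that was called higher or lower changed sign under the 17 alternatives, but sizes moved. The log2 ratio of C3 ranged from -5.23 to -0.05, close to no difference, and that of Tgfbi from -2.12 to -0.74. Among the named lower genes, Aprt, Ypel3 and Ccnd2 kept their call in all 17, Gas6 lost it in 1, Gpr180 and Mxd4 in 2, Htra3 in 3, Socs3 in 4, and C3 and Tgfbi in 8. Sox11 lost its call in 2. The cycling share of 17.7% was 9.41% after thinning to 2000 counts, 12.0% at a score of 10 or more and 15.2% without the deepest 5% of cells, and 16.1 to 19.1% with 1 replicate left out. No paired analysis was possible because there is 1 biological sample, and the 2 libraries, within which the ratios of each replicate were formed, are technical replicates of it.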
